A study of Mus musculus with 58 samples.

Results

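The genes described here are the ATP-binding cassette (ABC) transporter genes of the mouse, taken as every gene whose symbol, found through the transcript accession of its array probe, begins with Abca, Abcb, Abcc, Abcd, Abce, Abcf or Abcg followed by a number. Of 50 such genes in the annotation, 49 were measured, among 20018 genes with a name on the array. Where a gene had several probes, the brightest was used, which concerned 16 of the 49 genes. Expression was measured in lung, liver and forestomach of male Muta™Mouse, a transgenic strain that carries lacZ as a mutation reporter, aged about 13 weeks. All mice received olive oil by gavage daily for 28 days, either alone (vehicle) or with indeno(123,cd)pyrene (IP), a polycyclic aromatic hydrocarbon, at 12.5, 25 or 50 mg/kg-bw/day. Tissue was taken 72 h after the last dose, and the comparisons asked which genes of each tissue respond to IP. Mice 1 to 5 were vehicle mice, 6 to 10 received 12.5, 11 to 15 received 25 and 16 to 20 received 50 mg/kg-bw/day. Each group held 5 mice, except the vehicle groups of liver and forestomach with 4 mice each, in which mouse 4 was not analysed here. All values are log2 ratios of the sample (Cy5) over a universal mouse reference RNA (Cy3) on the same array, so that 0 stands for a signal equal to the reference and 1 for a signal 2 times as high.

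ABC proteins use ATP to move substrates across membranes. The families A to D and G are transporters of lipids, bile salts, sterols, drugs and their conjugates, whereas the E and F proteins lack membrane domains and act in translation. In liver, transporters at the bile canaliculus secrete bile salts, phospholipids, sterols and conjugated compounds, while others at the sinusoidal membrane return conjugates to blood. The aryl hydrocarbon receptor (AhR), which binds polycyclic aromatic hydrocarbons and switches on cytochromes P450 of family 1, belongs with the nuclear receptors and Nrf2 among the factors known to regulate ABC genes.

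On each array the sample signal exceeded background clearly for 53 to 90.7% of probes in lung, 37.7 to 79% in liver and 43.1 to 85.9% in forestomach. Arrays over 20 percentage points above the median of their tissue were those of lung mice 3, 8, 13 and 18, liver mice 9, 13, 15, 16 and 20, and forestomach mice 8 and 18. All liver arrays lay on 3 slides of their own and were read with another version of the scanner software, so tissue cannot be told apart from slide and software in comparisons with liver. Lung and forestomach arrays shared slides but lay in different rows of array positions, so tissue and array row cannot be told apart between them. Nearly every dose had its own column of array positions, so dose and array column cannot be told apart either. Each list of defining markers had its highest mean log2 ratio in the vehicle mice of its own tissue. The means there were 6.00 for lung, 7.75 for hepatocyte and 4.20 for squamous epithelium markers. All 8 measured genes of each list were above background on every vehicle array of their tissue, with 9 lung markers listed. Presence alone does not set tissues apart, since Apoa2, Lor and Trp63 were above background on every array of all 3 tissues. Trp63, a squamous marker, went the other way, at 0.06 in forestomach, 0.46 in lung and 0.68 in liver. The forestomach slices also carried glandular stomach markers, whose mean log2 ratio was 0.63 in vehicle mouse 1 and 6.60 to 6.68 in vehicle mice 2, 3 and 5, and smooth muscle markers at 5.69 to 6.48. Lung slices of vehicle mice carried heart muscle markers at a mean log2 ratio of 1.83 to 4.27. These were bulk samples, in which fewer cells of a type and less RNA per cell cannot be told apart.

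Which tissue expressed which transporter was asked first in the vehicle mice. Between lung and liver, 29 of 49 ABC genes passed the thresholds of an adjusted p of 0.05 and a 1.5-fold difference by limma, against 42% of all named genes. The 29 genes comprised 11 that were higher in lung, against 25.3% of all genes, and 18 that were higher in liver, against 16.7%, and with arrays centred on the median in place of loess the split was 19 to 12. Between forestomach and lung, 26 genes passed, against 31.7% of all genes, with 15 higher in forestomach, against 14.6%, and 11 higher in lung, against 17.2%. That split became 3 to 15 with median centring. Between forestomach and liver, 29 genes passed, against 37.5%, with 9 higher in forestomach, against 21.9%, and 20 higher in liver, against 15.6%, and the split was 10 to 13 with median centring. Of the genes that passed, 21, 13 and 22 also passed with median centring for lung and liver, forestomach and lung, and forestomach and liver. Shares of all genes that passed with median centring were not computed. The all-gene median log2 difference under it was 0.447 for lung minus liver, −0.188 for forestomach minus lung and 0.175 for forestomach minus liver. Liver was above both other tissues for 16 ABC genes, or 32.7%, against 11.7% of all named genes. The shares were 12.2% against 12.6% for lung above both and 14.3% against 8.67% for forestomach above both. In all, 38 of the 49 genes passed in at least 1 comparison of tissues.

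**Figure D1:**
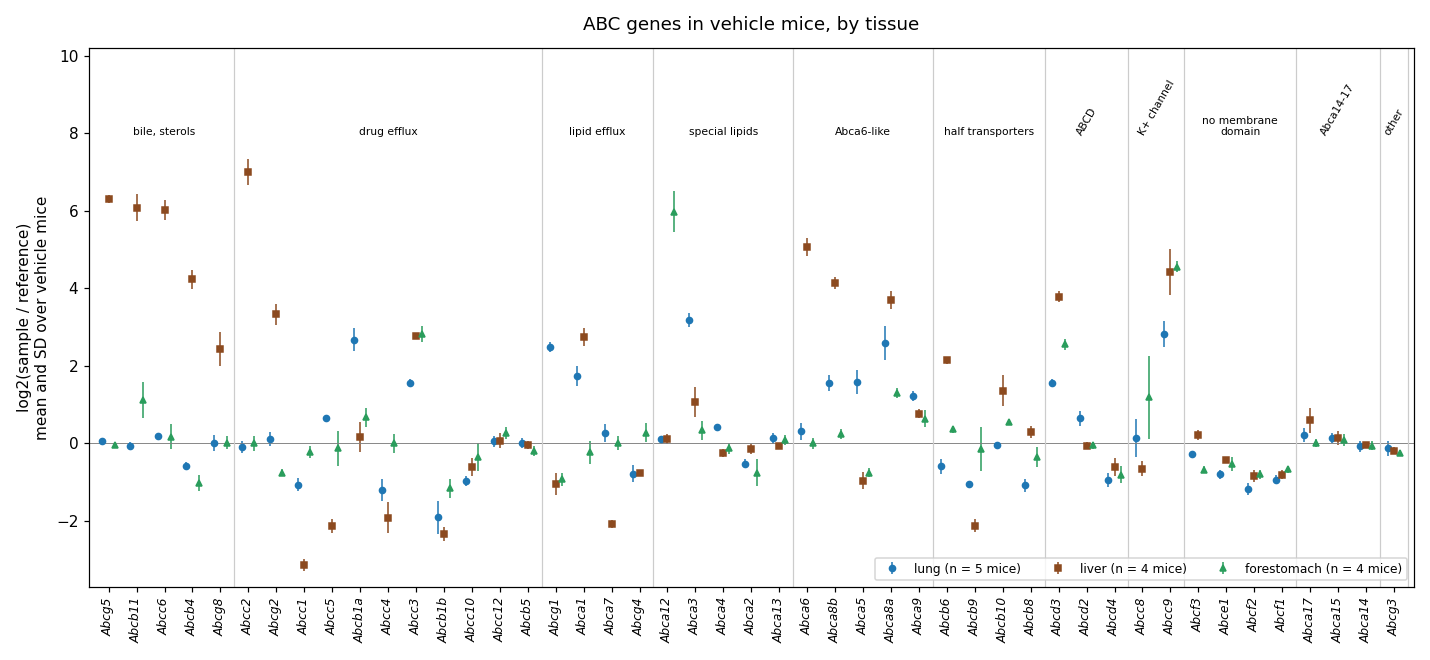
Mean log2(sample / reference) with SD over vehicle mice for 47 of the 49 ABC genes, grouped by role, in lung (circles, n = 5), liver (squares, n = 4) and forestomach (triangles, n = 4). Liver stands apart for most genes of bile and sterol excretion and for Abcc2, forestomach for Abca12, and lung for Abcg1, Abca3 and Abcb1a.

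Stretches upstream of the transcription start are shown for genes that separated the tissues most, since these genes carry the tissue pattern. They come from RefSeq (GRCm38.p6), run 5′ to 3′ on the strand of the gene, and carry AGGTCA, a core sequence of nuclear receptor sites, or its complement TGACCT in capitals. The stretches of Abcc2 (chr19:43782058-43782307, plus strand), Abcb11 (chr2:69342617-69342866, minus strand) and Abca12 (chr1:71414911-71415160, minus strand) are 250 bases long, and the 109 bases between the divergent starts of Abcg5 and Abcg8 (chr17:84683012-84683120) are given on the plus strand.
Abcc2: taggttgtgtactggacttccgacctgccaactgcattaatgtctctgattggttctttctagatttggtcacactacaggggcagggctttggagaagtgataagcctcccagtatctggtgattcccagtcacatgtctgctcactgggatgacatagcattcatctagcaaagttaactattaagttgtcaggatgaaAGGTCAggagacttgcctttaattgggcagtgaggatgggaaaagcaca
Abcb11: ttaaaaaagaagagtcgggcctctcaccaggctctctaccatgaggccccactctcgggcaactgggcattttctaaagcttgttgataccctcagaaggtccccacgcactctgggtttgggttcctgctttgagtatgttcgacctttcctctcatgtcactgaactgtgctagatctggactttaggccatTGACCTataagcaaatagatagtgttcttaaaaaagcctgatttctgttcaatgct
Abcg5 to Abcg8: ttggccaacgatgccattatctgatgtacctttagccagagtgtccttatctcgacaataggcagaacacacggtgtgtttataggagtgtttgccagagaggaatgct
Abca12: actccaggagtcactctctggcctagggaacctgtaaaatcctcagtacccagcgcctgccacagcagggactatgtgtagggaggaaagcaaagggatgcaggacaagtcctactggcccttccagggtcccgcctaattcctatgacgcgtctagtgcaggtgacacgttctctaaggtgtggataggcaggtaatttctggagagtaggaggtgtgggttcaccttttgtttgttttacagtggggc
One match to AGGTCA stands in the stretch of Abcc2 and one in that of Abcb11, and 0 in the others. Over the 37 members with an upstream stretch in the table, 5 held AGGTCA on either strand, or 13.5%, against 15.8% of 27025 genes. The matches fell on 4 of the 12 members that were highest in liver and on 1 of the 25 others. TATAAA was found in 5 of 37, also 4 and 1, against 14.3% of all genes. GCGTG, the core of AhR binding sites, was found in 13 of 37, here 4 and 9, against 30.9%. The 12 liver members were chosen by these same data, and the splits were not tested. A match describes letters only and is not a binding site.

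The list for the bile canaliculus and sterol excretion held Abcb11, Abcb4, Abcg5 and Abcg8. It also held Abcc6, whose role given below is a different one. All 5 genes, against 11.7% of all named genes, were higher in liver than in both other tissues. Their median difference of lung minus liver was −5.82 on the log2 scale, against 0.0185 over all named genes. Abcb11, the bile salt export pump, had log2 ratios of 6.27, 6.03, 5.62 and 6.41 in the livers of vehicle mice 1, 2, 3 and 5, and of −0.19, −0.10, −0.09, 0.11 and −0.10 in the 5 lungs. In forestomach the same pump was at 1.69, 1.26, 0.60 and 0.93. Forestomach values lay between those of lung and liver with no overlap on either side. They were 2.29-fold above lung, where only 1 of 5 vehicle arrays measured the gene above background (SE of 0.20 on the log2 scale, limma adjusted p = 2.15e-06). The hepatocyte marker list in these forestomach slices averaged 0.84, 2.76, 1.70 and 2.87 in the same order of mice, and its part in the Abcb11 level was not tested. Abcb4, the phosphatidylcholine floppase of bile, was 28.2-fold higher in liver than in lung and 38.4-fold higher than in forestomach. Abcc6, which lowers tissue calcification through ATP release, was 56.7-fold higher in liver than in lung and 57.9-fold higher than in forestomach, where 3 of 5 and 1 of 4 vehicle arrays were above background.

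Abcg5 and Abcg8, which together form the exporter of plant sterols and cholesterol, are neighbours on chromosome 17 with no coding gene between them. Log2 ratios of Abcg5 were 6.44, 6.28, 6.26 and 6.22 in liver, and those of Abcg8 were 2.52, 1.98, 3.01 and 2.23. In forestomach, where 0 of 4 vehicle arrays were well above background for either gene, Abcg5 was at least 46.5-fold and Abcg8 at least 3.74-fold lower than in liver. Both genes were thus highest in liver, and levels of different probes are not compared.

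Of the 11 genes for xenobiotic and drug efflux, 4 were higher and 3 lower in lung than in liver, against 25.3 and 16.7% of all named genes. Abcc2 (MRP2), which secretes conjugates of glutathione and glucuronic acid into bile, is one of the genes with AGGTCA upstream and had log2 ratios of 7.33, 7.17, 6.54 and 6.97 in liver. It was not well above background on any vehicle array of lung or forestomach, and liver was at least 97.8-fold higher than lung and at least 82.1-fold higher than forestomach. Abcg2, the breast cancer resistance protein, was at 3.24, 3.70, 3.05 and 3.31 in liver, −0.04 to 0.42 in lung and −0.85 to −0.64 in forestomach, so that the 3 tissues did not overlap. Lung was highest for Abcb1a, one of the mouse P-glycoproteins, at 2.83, 2.73, 2.20, 2.61 and 2.98, against −0.13 to 0.71 in liver and 0.41 to 0.90 in forestomach. Its neighbour on chromosome 5, Abcb1b, was highest in forestomach, by 1.18 ± 0.22 over liver and 0.75 ± 0.21 over lung, of which the latter was 0.06 and did not pass with median centring. Whether the probes of these similar genes also bind each other's transcripts was not tested.

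The conjugate transporters of the basolateral membrane followed other orders. Abcc1 (MRP1) was above background on 1 of 4 vehicle livers and was 7.52-fold higher in forestomach and 4.18-fold higher in lung. Abcc4 (MRP4) was 3.79-fold higher in forestomach than in liver, and 2.30-fold higher than in lung. Abcc5 (MRP5), a transporter of cyclic nucleotides, led in lung with a 6.85-fold difference from liver. Forestomach vehicle mouse 1 had a log2 ratio of −0.78 for Abcc5, against −0.05 to 0.22 in the other vehicle mice. Abcc3 (MRP3), which carries glucuronides and bile salts out of the hepatocyte into blood, was at 2.67 to 2.84 in liver, 2.51 to 2.98 in forestomach and 1.45 to 1.66 in lung, so that liver and forestomach overlapped and lung lay below both. With median centring, the differences of Abcc1, Abcc3 and Abcc4 between forestomach and lung and that of Abcc3 between lung and liver no longer passed. Of the remaining efflux genes, Abcc10 passed once, at 1.52-fold higher in forestomach than in lung. That difference turned to −0.04 on the log2 scale with median centring, against an all-gene median of −0.188. Abcb5 and Abcc12 passed in no comparison.

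**Figure D2:**
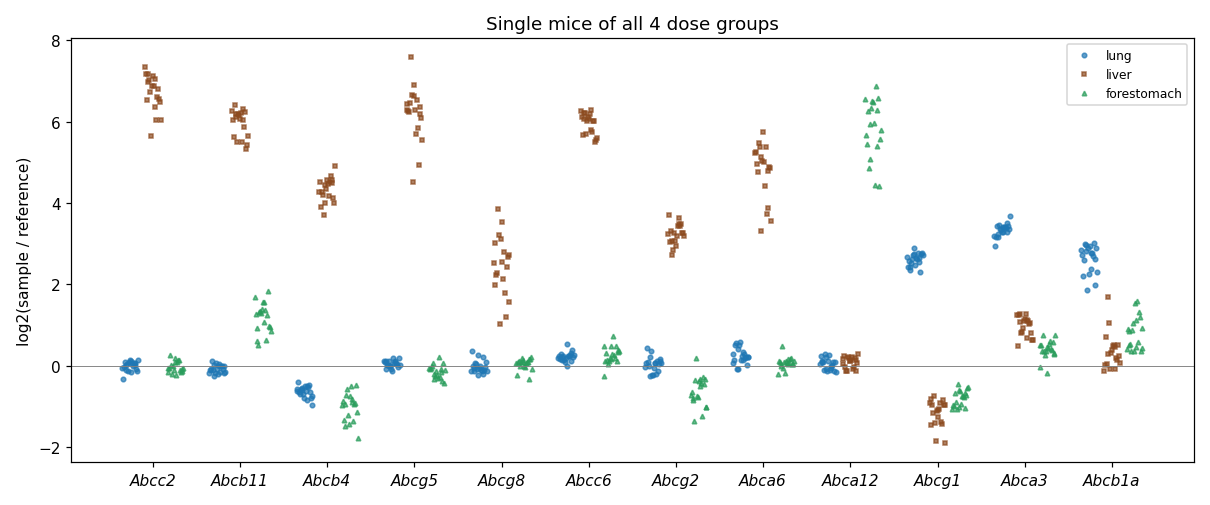
Log2(sample / reference) of 12 ABC genes in single mice of all 4 dose groups, with lung as circles, liver as squares and forestomach as triangles, and points spread sideways only to be seen. Abcc2, Abcb4, Abcc6 and Abcg2 form a separate cloud for liver, Abca12 for forestomach, and Abcg1, Abca3 and Abcb1a for lung.

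Genes for cholesterol and phospholipid efflux were divided among the tissues. Abcg1, which loads cholesterol onto lipoproteins and is prominent in alveolar macrophages, was at 2.66, 2.42, 2.58, 2.36 and 2.44 in lung, at −1.46 to −0.83 in liver and at −1.08 to −0.68 in forestomach. Lung was thus 11.6-fold above liver, and forestomach minus lung was −3.42 ± 0.16 on the log2 scale (difference ± SE). The macrophage marker list, with 3 of 4 genes measured, had its highest mean in vehicle lungs. It ran from 2.37 to 3.17 there, 1.61 to 2.38 in liver and 0.48 to 1.98 in forestomach, so that lung and liver overlapped. Marco was at 3.38 in lung and 1.96 in liver and Mrc1 at 4.45 and 4.07, whereas Adgre1 went the other way, at 0.02 and 0.13. The part of macrophage content in the Abcg1 difference was not tested. Abca1, which exports cholesterol to apolipoprotein A-I, was highest in liver, 7.87-fold above forestomach and 2.01-fold above lung. The difference between liver and lung turned round with median centring, to 0.15 in favour of lung on the log2 scale. The all-gene median under that setting was 0.447 in favour of lung. Abca7, a relative of Abca1, was 5.09-fold higher in lung and 4.24-fold higher in forestomach than in liver. Abcg4 was 2.05-fold higher in forestomach than in liver, where 1 of 4 vehicle arrays was above background.

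Among transporters of specialised lipids, Abca12, which carries glucosylceramide into the lamellar granules of keratinising epithelium, marked the forestomach. Its log2 ratios there were 6.56, 5.66, 5.44 and 6.26, against 0.05 to 0.24 in lung and −0.04 to 0.25 in liver. Forestomach was 58.4-fold above lung, where 1 of 5 vehicle arrays was above background, and at least 50.8-fold above liver. Abca3, which fills the lamellar bodies of alveolar type II cells with surfactant lipid, was at 3.18, 2.95, 3.17, 3.44 and 3.16 in lung, 0.49 to 1.26 in liver and −0.02 to 0.51 in forestomach. Lung was 4.34-fold and 7.18-fold higher. Abca4, the retinoid flippase of photoreceptors, was above background on 4 of 5 vehicle lungs and on none of the other vehicle arrays, at least 1.07-fold higher in lung than in liver. Abca2 was 1.53-fold higher in liver than in forestomach. The log2 difference of forestomach minus liver was −0.04 with median centring (adjusted p = 0.946), and the fold fell below the limit without forestomach mouse 1, liver mouse 1 or liver mouse 3. Abca13 passed nowhere.

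A cluster of 5 related genes on chromosome 11, Abca8b, Abca8a, Abca9, Abca6 and Abca5, lies in an unbroken row with no other coding gene between, yet its members did not share a tissue. Abca6 was at 5.23, 5.26, 4.96 and 4.77 in liver, 0.07 to 0.55 in lung and −0.20 to 0.12 in forestomach. Abca8b was likewise highest in liver, 6.01-fold above lung and 14.9-fold above forestomach, as was Abca8a, by 2.15-fold and 5.26-fold. The difference of Abca8a between lung and liver did not pass with median centring (−0.26, adjusted p = 0.324) or with the Cy5 signal alone. The neighbour of Abca6, Abca5, went the other way, at 1.27, 2.06, 1.62, 1.37 and 1.58 in lung and −1.22 to −0.68 in liver. Abca9 was also highest in lung, although of its comparisons only that with forestomach passed, at 1.51-fold.

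Transporters of organelle membranes mostly led in liver. Abcb6, Abcb8 and Abcb10, which serve haem and iron-sulphur metabolism and other tasks of the mitochondrion, were each highest in liver, Abcb6 by 6.65-fold over lung. With median centring the differences of Abcb8 and Abcb10 from liver kept their sign and no longer passed, while that of Abcb6 did. The lysosomal peptide transporter Abcb9 had the opposite order, with forestomach 3.93-fold above liver and lung 2.11-fold above liver. In forestomach, vehicle mouse 1 was at −0.99 for Abcb9 and the other 3 at −0.02 to 0.23. Abcd3, which imports bile acid precursors and branched acyl-CoA into peroxisomes, was at 3.71, 3.60, 3.90 and 3.89 in liver, 2.40 to 2.73 in forestomach and 1.42 to 1.65 in lung, with no overlap among the 3 tissues, although the difference between forestomach and lung did not pass with median centring (0.43, adjusted p = 0.341). Abcd2, its paralogue for very long fatty acids, was above background in lung and on none of the other vehicle arrays. Abcd4 passed nowhere.

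The sulphonylurea receptors Abcc8 and Abcc9, which are potassium channel subunits and not transporters, differed most among single mice. Abcc9 was at 4.59, 4.36, 4.58 and 4.72 in forestomach, 4.23, 5.24, 3.84 and 4.35 in liver and 2.49 to 3.33 in lung, so that lung lay below the other tissues, which overlapped. With the scanner log ratio, the difference between forestomach and lung was 1.25 and did not pass (adjusted p = 0.31). Abcc8 in forestomach was at −0.16, 2.45, 1.26 and 1.18, with the low value in mouse 1, the slice with the low glandular stomach markers, whose part was not tested. Forestomach exceeded lung by 1.04 ± 0.41 (adjusted p = 0.0474), a call that was lost when forestomach mouse 2, 3 or 5 or lung mouse 1, 2 or 4 was left out. Of the 4 proteins without membrane domains, only Abcf3 passed, at 1.85-fold higher in liver than in forestomach, while Abce1, Abcf1 and Abcf2 passed in no comparison. Abca14, Abca15, Abca17 and Abcg3 also passed in none, and Abcg3 was above background on 0 vehicle arrays.

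Other genes of these pathways differed between tissues as well, given as fitted differences without a check against background. Of 12 receptors and factors known to regulate ABC genes, 7 were higher in liver than in lung and 4 higher in lung. The shares of all named genes, here and for the solute carriers below, were 16.7% higher in liver and 25.3% higher in lung. Nr1h4, the bile acid receptor FXR, had a log2 difference of lung minus liver of −6.87 ± 0.32, Hnf4a of −6.37 ± 0.69, and the xenobiotic receptors Nr1i2 (PXR) and Nr1i3 (CAR) of −4.59 ± 0.40 and −4.45 ± 0.26. Nfe2l2 (Nrf2) and Ahr were higher in lung, by 1.31 ± 0.15 and 0.94 ± 0.17. Of 10 solute carriers of bile acids and organic ions, 7 were higher in liver than in lung, with Slco1b2 first, at −10.24 ± 0.28 for lung minus liver, and 1 was higher in lung. The latter was Slc10a1, known as a hepatocyte carrier of bile acids, on its brightest probe, whose target was not checked. Of 3 ABC proteins with other symbols, Tap2 and Cftr were higher in lung and Tap1 in liver.

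The second question was whether IP changed these genes. As a check of exposure, 2 of 6 AhR response genes passed both thresholds in lung at 50 mg/kg-bw/day, namely Cyp1b1, at 3.64 ± 0.45 above vehicle on the log2 scale (limma adjusted p = 0.00145), and Ahrr, the AhR repressor, at 2.50 ± 0.28 (adjusted p = 0.000359). None of the 6 passed at 50 mg/kg-bw/day in liver or forestomach. Of the ABC genes, 0 of 49 passed at any dose in any tissue. The share of all named genes that passed was 0.15% in lung at 50, 0.015% in lung at 25 and 0% in the other 7 comparisons. With shares this low, the 0 cannot be read as particular to ABC genes. At an unadjusted p under 0.05, the ABC genes numbered 2, 7 and 6 in lung from the lowest to the highest dose, against 5.35, 9.67 and 12.7% of all genes. In liver they were 3, 2 and 3, against 2.77, 4.82 and 8.43%, and in forestomach 2 at each dose, against 4.51, 3.95 and 4.23%. The trend over dose gave 0 of 49 in each tissue at an adjusted p of 0.05, against 0.26% of all genes in lung and 0% in liver and forestomach, and 0 of 12 receptors, 0 of 10 solute carriers and 0 of 3 other ABC proteins passed at any dose. Slide was not in these fits, although each of the 5 lung slides held every dose. With slide as a fixed block, the lung trend passed for Abca7 (limma adjusted p = 0.0279) and Abcc3 (limma adjusted p = 0.0454). The share of all genes with that block was not computed.

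The size of change that the data leave possible differed by tissue. At 50 mg/kg-bw/day, the 95% interval of the difference lay within 1.5-fold in both directions for 46 of 49 ABC genes in lung, 28 in liver and 40 in forestomach. The intervals had a median width of 0.382, 0.653 and 0.575 on the log2 scale. Differences from vehicle at 50 ran from −0.32 to 0.38 in lung, from −0.90 to 0.55 in liver and from −0.90 to 0.69 in forestomach. For Abcg2, which exports many conjugates of xenobiotics, the difference at 50 was −0.06 in lung (95% interval −0.30 to 0.18), −0.0015 in liver (−0.31 to 0.31) and 0.14 in forestomach (−0.39 to 0.66). For Abcb1a it was −0.10 (−0.54 to 0.34), 0.07 (−0.49 to 0.62) and 0.18 (−0.34 to 0.70).

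**Figure D3:**
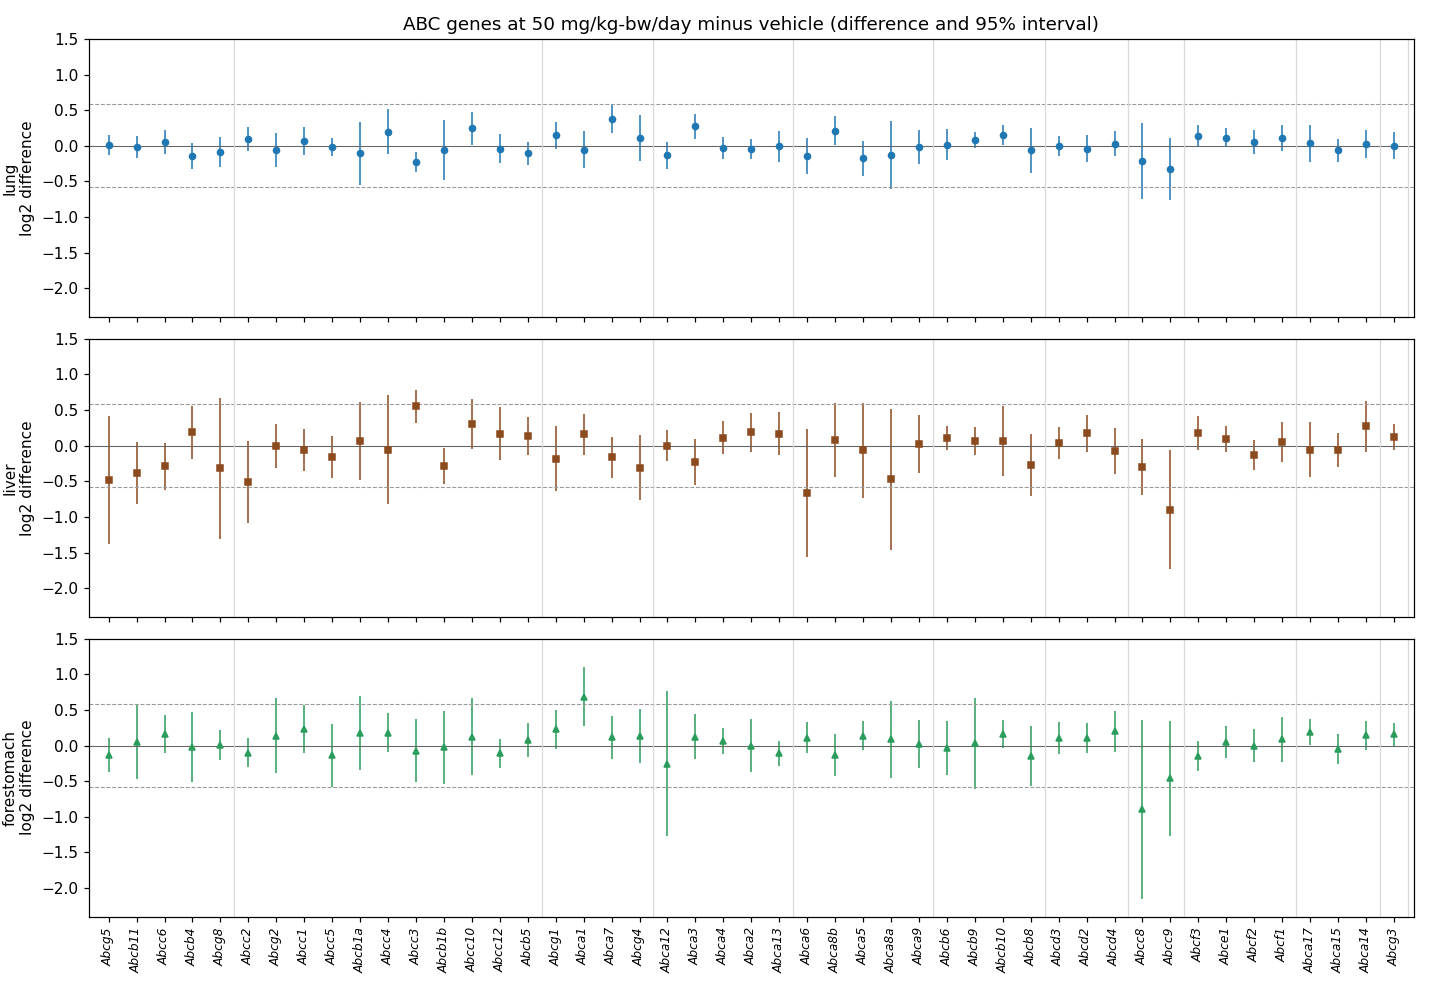
Difference between 50 mg/kg-bw/day and vehicle for 47 of the 49 ABC genes (log2, points) with its 95% interval (bars) in lung, liver and forestomach, in the same order of genes as by role, with dashed lines at a 1.5-fold change. Lung intervals are the narrowest, Abcc3 stands highest in liver, Abca1 in forestomach, and Abcc9 in liver and Abcc8 in forestomach are the lowest.

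The lowest unadjusted p values in liver belonged to Abcc3. Vehicle livers had log2 ratios of 2.67, 2.83, 2.84 and 2.77, and livers at 12.5 mg/kg-bw/day had 3.14, 2.93, 3.29, 3.27 and 3.07. At 25 the values were 3.52, 3.30, 3.38, 3.64 and 3.38, and at 50 they were 3.22, 3.04, 3.56, 3.35 and 3.48. Every treated liver lay above every vehicle liver. The differences from vehicle were 0.36, 0.66 and 0.55 ± 0.11 on the log2 scale, with an exact permutation p of 0.0159, 0.00794 and 0.0159, two-sided, where 0.00794 is the smallest this design allows. The limma adjusted p over all probes was 1.00, 0.392 and 0.292, so the difference did not pass at any dose. With median centring the differences were 0.74, 0.98 and 1.12, with adjusted p of 0.736, 0.766 and 0.191. The all-gene medians under that setting were 0.175, 0.162 and 0.296. Groups without overlap occurred for 1, 2 and 1 of 49 ABC genes in liver at the 3 doses, against 1.14, 2.34 and 3.11% of all genes. They occurred for 0, 1 and 1 in lung, against 0.889, 2.21 and 3.29%, and for 1, 0 and 1 in forestomach, against 0.874, 1.77 and 1.77%. Within the 3 slides that carried liver, mice at 50 exceeded the vehicle by 0.46 to 0.61. The hepatocyte marker list ran from 7.04 to 8.04 in vehicle livers and from 6.96 to 8.10 at 50. Without the 5 brightest liver arrays, the difference at 50 was 0.54.

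Abcc3 in lung had values of 1.64, 1.45, 1.48, 1.60 and 1.66 in vehicle mice and of 1.40, 1.28, 1.42, 1.23 and 1.36 at 50 mg/kg-bw/day. Here all treated mice lay below all vehicle mice (exact permutation p = 0.00794, two-sided). The difference was −0.23 ± 0.07, with an adjusted p of 0.177, and −0.04 and −0.17 at the lower doses. It was negative within each of 5 slides (−0.43 to −0.06). With slide as a fixed block, the trend over dose passed, at −0.24 per 50 mg/kg-bw/day (adjusted p = 0.0454). With arrays centred on the median, the difference at 50 was 0.04, against an all-gene median of 0.124. In forestomach the vehicle values of 2.51, 2.91, 2.98 and 2.89 overlapped with 2.63, 2.54, 2.40, 2.93 and 3.27 at 50. The effect at 50 differed between lung and liver by −0.78 ± 0.20, which had an unadjusted p of 0.000261 and did not pass over all probes (adjusted p = 0.26).

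**Figure D4:**
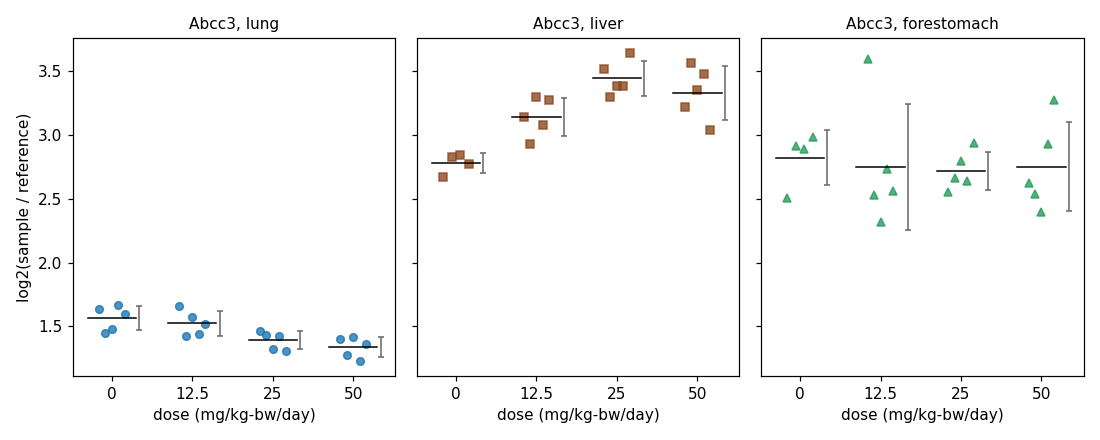
Log2(sample / reference) of Abcc3 in single mice by dose of IP (mg/kg-bw/day) in lung, liver and forestomach on 1 common axis, with the mean of each group as a line and its SD as a bar. All 15 treated livers sit above the 4 vehicle livers, the lungs at 50 sit below the vehicle lungs, and the forestomachs overlap at each dose.

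In lung, the lowest p at 50 mg/kg-bw/day was that of Abca7. Vehicle lungs were at 0.26, −0.10, 0.25, 0.47 and 0.46, and lungs at 50 at 0.72, 0.73, 0.66 and 0.76, with mouse 17 apart at 0.38. The groups overlapped through mouse 17 and vehicle mice 4 and 5. The difference was 0.26, 0.26 and 0.38 ± 0.09 at the 3 doses, with an adjusted p at 50 of 0.0987 and an exact permutation p of 0.0238, two-sided. With slide as a fixed block, the adjusted p at 50 was 0.00899, below the limit on fold, and the trend passed (adjusted p = 0.0279). Together with Abcc3, that made 2 ABC genes with a trend in lung under this block, against 0 without it. The share of all genes that passed under the block was not computed, so the rise cannot be read as particular to ABC genes. B cell markers averaged 0.03 to 1.37 in vehicle lungs and 1.41 to 1.78 at 50 for 3 of 3 genes above background, and heart muscle markers 1.83 to 4.27 and −0.02 to 2.86 for 5 of 5 genes. Brown fat markers averaged 0.75 to 3.18 in vehicle lungs, with the low value in mouse 1, and 0.41 to 1.02 at 50, with 1 of 3 genes above background on all arrays of either group. White fat markers averaged 2.13 over the vehicle lungs, at most 3.15 in 1 mouse and with 3 of 4 genes above background on all arrays, and 1.25 over the lungs at 50, within 0.89 to 1.61 and with 2 of 4. The part of these 4 lists in the lung differences of Abcc3, Abca7 and Abca3 was not tested.

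Abca3 in lung was at 3.18, 2.95, 3.17, 3.44 and 3.16 in vehicle mice and at 3.27, 3.51, 3.44, 3.35 and 3.67 at 50, with overlap through vehicle mouse 4. Its difference was 0.27 ± 0.08 (adjusted p = 0.221), and it was positive within 5 of 5 slides. The lung marker list, which holds the surfactant proteins, ran from 5.86 to 6.20 in vehicle lungs and from 5.58 to 6.28 at 50. Abcc10, Abcb10 and Abca8b had differences of 0.25, 0.15 and 0.21 at 50 in lung, each with an unadjusted p under 0.05 and an adjusted p of at least 0.519.

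In forestomach, Abca1 had the lowest p. Vehicle mice were at −0.38, 0.21, −0.40 and −0.36, and mice at 50 mg/kg-bw/day at 0.76, 0.20, 0.67, 0.24 and 0.40. Mouse 2 alone among vehicle mice reached the range of the treated group. The difference was 0.37, 0.52 and 0.69 ± 0.20 at the 3 doses, with an exact permutation p of 0.0159 at 50, two-sided, and an adjusted p of 1.00. White fat markers in the same slices averaged 0.66 to 1.02 in vehicle mice, with 2 of 4 genes above background on all of these arrays, and 4.54, 0.07, 3.72, 0.69 and 0.90 in mice 16 to 20, and were highest in mice 16 and 18, where Abca1 was highest. Brown fat markers averaged 2.08 to 2.15 in vehicle mice and 1.89 to 4.07 at 50. Spermatid markers averaged −0.28 to 0.51 in vehicle mice and 0.76 to 4.06 at 50. The part of these lists in the Abca1 difference was not tested. The effect on Abca1 at 50 was larger in forestomach than in lung, with a difference of lung minus forestomach of −0.74 ± 0.22, which had an unadjusted p of 0.00187 and did not pass over all probes. Abca17 had 5 forestomachs at 50, of 0.16 to 0.21, above all 4 vehicle values of −0.14 to 0.12, with a difference of 0.19. Its probe was above background on 3 of 19 forestomach arrays and on 0 of the vehicle arrays, and its second probe had a difference of 0.0097.

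**Figure D5:**
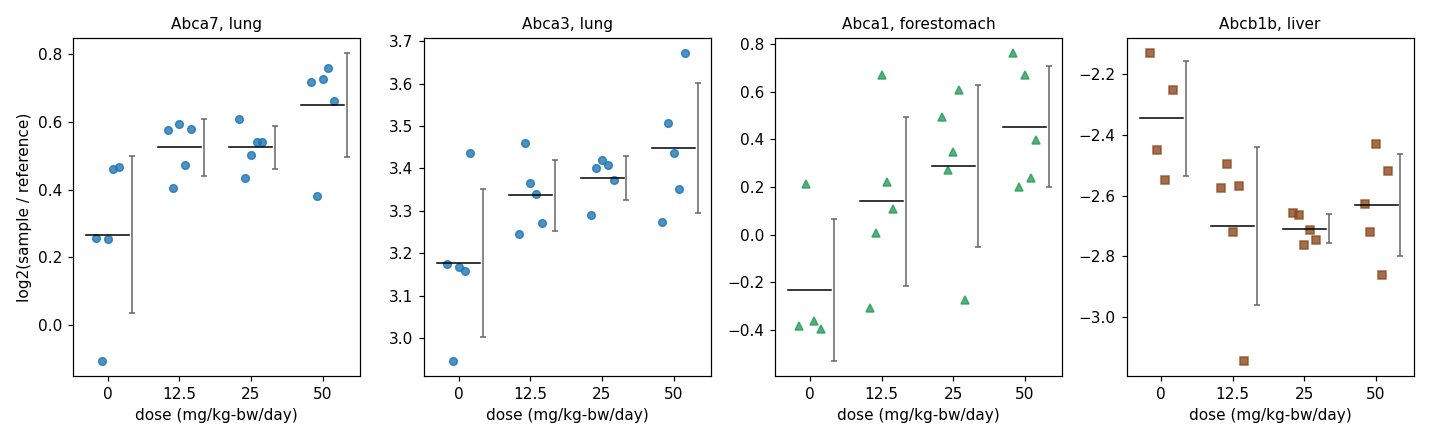
Log2(sample / reference) in single mice by dose of IP (mg/kg-bw/day) for Abca7 and Abca3 in lung, Abca1 in forestomach and Abcb1b in liver, each on its own axis, with the mean as a line and the SD as a bar. The dose groups overlap with vehicle in each panel, apart from Abcb1b at 25 mg/kg-bw/day.

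Some other ABC genes had negative differences in liver, although the median over all 49 at 50 mg/kg-bw/day was −0.0015, against −0.0126 over all named genes. At an unadjusted p under 0.05 by limma, 2 were lower at 50, or 4.08%, against 5.07% of all genes. Higher at 50 was 1, or 2.04%, against 3.36%. Abcb1b was at −2.13, −2.45, −2.55 and −2.25 in vehicle livers and at −2.66, −2.66, −2.76, −2.75 and −2.71 at 25 mg/kg-bw/day, without overlap, and the difference was −0.36, −0.36 and −0.29 ± 0.12 at the 3 doses (adjusted p at 50 = 0.718). With median centring the difference at 50 was 0.35, against an all-gene median of 0.296. Abcc9 was at 2.90, 4.24, 3.80, 4.00 and 2.63 at 50, with a difference of −0.90 ± 0.40 (adjusted p = 0.718). Its lowest livers of all were those of mice 9, 13, 15, 16 and 20, which are the 5 brightest liver arrays, and without these arrays the difference was −0.40. The same mice 9, 15, 16 and 20 had Abca6 at 3.30, 3.72, 3.87 and 3.56, below the other livers at 4.42 to 5.74, which included mouse 13. Abcc2 at 50 was at 6.61, 6.79, 6.55, 6.49 and 6.04, with a difference of −0.51 (95% interval −1.08 to 0.06), and Abcb11 had a difference of −0.39. Both signs turned round with median centring, to 0.10 and 0.19, which stayed below the all-gene median of 0.296 under that setting.

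The effect of 50 mg/kg-bw/day was also compared between tissues, and 0 of 49 ABC genes passed at an adjusted p of 0.05 for lung against liver, lung against forestomach or liver against forestomach, against 0.035, 0.03 and 0.00999% of all named genes. At an unadjusted p under 0.05 the numbers were 4, 2 and 4, against 7.75, 3.46 and 6.9%. Of the AhR response genes, Cyp1b1 and Ahrr passed in lung against liver, at 3.55 ± 0.49 and 2.22 ± 0.32, and in lung against forestomach, at 3.39 ± 0.49 and 2.10 ± 0.32.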

How the data were processed

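RNA from 58 tissue samples was measured, 1 array per mouse and tissue. Per the labels, sample RNA was labelled with Cy5 and reference RNA, pooled from 11 cell lines, with Cy3. The intensity values, median pixel signals of each spot, were made by the authors with Agilent Feature Extraction (10.7.3.1 for lung and forestomach and 11.0.1.1 for liver, per the file headers) and deposited without background subtraction. The deposited log10 ratios were background-corrected and dye-normalized by that software. The log2 ratios deposited by the authors were LOWESS-normalized; their Pearson r with the scanner ratios was 0.996 to 0.9994 in lung and forestomach and −0.007 to 0.007 in liver, where they were not used.

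Log2(Cy5/Cy3) of the median signals was normalized by loess within each array, spots marked as outliers were left out, and spots of a probe were averaged (R 4.3.3, limma 3.58.1). Each tissue was fitted in limma with 4 dose groups, and all arrays in 1 model of tissue and dose for differences between tissues. Tests were two-sided, with Benjamini-Hochberg adjustment over 55681 probes, of which 26413 had a gene name. Genes were called at an adjusted p of 0.05 and, except for trends and differences of effects, a fold change of 1.5. For ABC genes compared between tissues, where a probe was above background on no array of a group, its fold is a bound against the lowest signal above background. Differences of other genes are fitted values without such a bound. The number of arrays limits the precision. The study's permutation statistic was replaced by limma's. Named genes are examples of 10 role lists, the 5 ABC genes with the lowest p at 50 mg/kg-bw/day in each tissue and neighbouring genes; others were named after their values were seen. Values of 2 ABC genes are not reported here, although all counts include them. Members and lists were chosen with earlier results of these data known. The test was checked on simulated data.

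Mouse numbers in the labels name the same animal across tissues. Residuals of 1 mouse in a pair of tissues correlated with a median r of 0.083 (lung with liver), 0.18 (lung with forestomach) and 0.028 (liver with forestomach) over 19 mice. Lung and forestomach arrays of a mouse mostly lay on the same slide, so animal and slide cannot be told apart in that pair. The methods give 4 vehicle mice for IP, whereas the labels number 5 in lung, and all 5 were used. Alternatives were normexp with an offset of 50, median centring, Aquantile, Cy5 alone, the scanner log ratio, the authors' values, inclusion of outlier spots, omission of dim probes, means over probes, limma with trend and robust, slide and mouse as blocks, smaller sets of arrays, other thresholds, dose ranks and each mouse left out. Leaving out the brightest arrays was added after seeing the data.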

Additional observations from a re-analysis of the deposited data

Results flagged for a closer look

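In 57 groups of 4 or 5 mice, single values of the named genes were tested for standing apart from the rest of their group by Dixon's ratio of gap to range, which chance alone exceeds in about 1 in 20 groups, and 3 did. Abca1 in forestomach vehicle mouse 2 was at 0.21, against −0.40 to −0.36 in the other 3 mice (ratio 0.945). Abcc8 in liver vehicle mouse 5 was at −0.37, against −0.78 to −0.73 (ratio 0.874). Abca7 in the lung of mouse 17 at 50 mg/kg-bw/day was at 0.38, against 0.66 to 0.76 (ratio 0.744).

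In 147 combinations of an ABC gene and a pair of tissues, effects at 50 mg/kg-bw/day were checked for all treated mice lying above the vehicle mean in one tissue and below it in the other, and 4 combinations did so. The share over all genes was not computed, so the 4 cannot be read as unusual or as particular to ABC genes. The difference of the effects was then tested in limma, and none passed. For Abca3, lung minus liver was 0.504 (adjusted p = 0.557). For Abcc3, lung minus liver was −0.779 (adjusted p = 0.26). For Abca6, lung minus forestomach was −0.255 (adjusted p = 1.00) and liver minus forestomach was −0.773 (adjusted p = 0.814).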

How the results depend on the processing

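The counts of ABC genes past the thresholds stayed within 1.5 times of those reported in 246 recomputations and moved further in 17, leaving aside those without 1 mouse. The reported counts for dose, trend and differences of effects were all 0, and for these the rule only asked whether 0 stayed 0. Direction was not part of the rule, so the changed split between lung and liver with median centring is not among the 17. With single mice left out, the counts for dose, trend and differences of effects stayed at 0, and those between tissues ran from 28 to 30 for lung and liver, 23 to 26 for forestomach and lung and 27 to 30 for forestomach and liver. At an unadjusted p under 0.05 and a fold of 1.2, the lenient thresholds, forestomach had 1, 1 and 1 genes at the 3 doses, liver 3, 2 and 3, and lung 2 at 50. The trend had 2 genes in forestomach, 4 in liver and 2 in lung, and differences of effects numbered 4 for lung minus liver, 2 for lung minus forestomach and 4 for liver minus forestomach. Slide as a fixed block gave 2 genes with a trend in lung. A limit of 4-fold left 18, 5 and 14 genes for lung and liver, forestomach and lung, and forestomach and liver. Shares of all genes were not computed for the lenient thresholds, the fixed slide block or the 4-fold limit. These counts therefore cannot be read as particular to ABC genes. Pairing by mouse, as a random block, gave 29, 26 and 29 genes for the same comparisons, and as a fixed block in vehicle mice alone 29, 25 and 29, without Abcb10 between forestomach and lung, and it changed no other call among these counts. The causes of these changes were not tested, except where the threshold itself differed.

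The all-gene median shifted with median centring by up to 0.428 (lung minus liver), and by 0.308 in liver at 50 mg/kg-bw/day. Under that setting it was 0.447 for lung minus liver, −0.188 for forestomach minus lung and 0.296 in liver at 50. It was 0.092, 0.129 and 0.124 in lung at the 3 doses, and 0.053 and 0.187 in forestomach at 12.5 and 25. With median centring, signs turned for Abca1 (lung minus liver 0.15) and Abcb10 and Abcc10 (forestomach minus lung −0.079 and −0.042). At 50 in liver they turned for Abcb11 (0.19), Abcb1b (0.35) and Abcc2 (0.10), and for differences of effects in Abcc2 (lung minus liver −0.050) and Abcc6 (liver minus forestomach 0.29). Abcc3 turned in lung at the 3 doses (0.13, 0.087 and 0.042) and in forestomach at 12.5 and 25 (0.16 and 0.24). With the scanner log ratio, Abcb10 in lung at 50 (−0.0028), Abcc3 in forestomach at 12.5 (0.061) and Abcc3 in lung at 12.5 (0.027) turned, and with Cy5 alone Abcb11 in liver at 50 (0.022). Abcc3 in forestomach at 12.5 was 0.032 without mouse 8, also with the brightest arrays left out, and −0.29 without mouse 6. Without the brightest arrays, Abca9 and Abcb10 between forestomach and lung (−0.56 and 0.58) no longer passed. Abcc3 in liver stayed above vehicle in every alternative run.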
